A study of Mus musculus with 18 samples.

Results

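The genes described here are 10 genes of the cellular response to low oxygen: Hif1a, Epas1, Egln1, Egln3, Pdk1, Bnip3, Bnip3l, P4ha1, Vegfa and Ankrd37. They were taken by symbol from a table of 46073 mouse genes, and all 10 passed the filter on low counts, as did 18447 genes in all. They were picked with earlier results of these libraries in view, so their levels and tests are given as a description and not as independent support for any pattern. RNA was sequenced from donor T cells, either wild type (WT) or with Wapl knocked out (KO), that were recovered from the spleens of transplanted mice on day 7. Wapl is the factor that releases cohesin, the ring complex of DNA loops and sister chromatids, from chromosomes.

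The 12 libraries formed 4 groups of 3, and each library pooled 2 to 4 mice. Syngeneic WT and syngeneic KO T cells had been given to B6.SJL-Ptprca Pepcb/BoyJ recipients, which share the donors' major histocompatibility type, after 9.5 Gy of irradiation and with 8.5 × 10⁶ splenic T cells. Allogeneic WT and allogeneic KO T cells had been given to CByJ.SJL(B6)-Ptprca/J recipients, whose tissue donor T cells see as foreign, after 8 Gy in split doses and with 1 × 10⁶ T cells. All recipients also received 5 × 10⁶ marrow cells depleted of T cells. Mice were 8 to 12 weeks old and the purchased donors were female C57BL/6. Sorting kept live cells that carried CD3 and the donor form of CD45. Recipient strain, irradiation dose and T cell number all change together with the setting, so an allogeneic versus syngeneic difference cannot be told apart from any of them. The labels give no Cre driver, deleted exons or separate donor sex for the KO, and the cell type field of the syngeneic KO libraries names the allogeneic recipient strain. Those libraries were grouped by their stated transplant type.

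Cells sense oxygen through prolyl hydroxylases of the EGLN family, which mark the alpha subunits HIF-1 alpha (Hif1a) and HIF-2 alpha (Epas1) for destruction by the VHL ubiquitin ligase when oxygen is present. When hydroxylation stops, an alpha subunit pairs with ARNT and binds DNA at a short core sequence, and its targets shift metabolism towards glycolysis, limit the use of mitochondria and promote vessel growth. In T cells, antigen receptor and cytokine signals also raise Hif1a. Because the alpha subunits are controlled mostly as proteins, RNA levels do not measure how active the factors were.

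The stretches before the start sites of 4 members called in both genotypes in the comparison of settings are shown. These genes moved in opposite directions while each carried a match to the short core, in its ACGTG or its GCGTG form. Hif1a and Ankrd37 were higher, and Pdk1 and P4ha1 lower, in allogeneic libraries. Sequences are from RefSeq on GRCm38.p6, 5′ to 3′ on the gene's strand, with exonic bases left out. Capitals mark the core bound by hypoxia-inducible factors, searched as ACGTG or GCGTG on both strands, so that the palindrome CACGTG counts as 2 matches and so does CACGCGTG.
Hif1a: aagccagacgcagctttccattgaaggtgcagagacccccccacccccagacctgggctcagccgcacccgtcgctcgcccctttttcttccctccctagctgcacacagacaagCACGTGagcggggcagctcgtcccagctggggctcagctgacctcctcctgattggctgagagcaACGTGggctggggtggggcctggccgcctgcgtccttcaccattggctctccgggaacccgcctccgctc
Ankrd37: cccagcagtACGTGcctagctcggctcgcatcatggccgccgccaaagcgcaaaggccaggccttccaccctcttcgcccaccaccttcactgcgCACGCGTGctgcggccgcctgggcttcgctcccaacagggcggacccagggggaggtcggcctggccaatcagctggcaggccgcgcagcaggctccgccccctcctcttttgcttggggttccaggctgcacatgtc
Pdk1: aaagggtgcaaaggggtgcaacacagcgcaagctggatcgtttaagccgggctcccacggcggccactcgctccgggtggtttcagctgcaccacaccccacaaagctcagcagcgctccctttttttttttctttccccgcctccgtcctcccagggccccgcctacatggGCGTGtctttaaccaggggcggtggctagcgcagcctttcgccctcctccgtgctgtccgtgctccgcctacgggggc
P4ha1: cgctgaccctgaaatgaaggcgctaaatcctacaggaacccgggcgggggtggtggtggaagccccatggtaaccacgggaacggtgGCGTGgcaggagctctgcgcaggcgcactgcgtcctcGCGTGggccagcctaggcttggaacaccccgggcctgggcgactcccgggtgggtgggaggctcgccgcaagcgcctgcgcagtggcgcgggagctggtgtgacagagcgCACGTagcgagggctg
The Hif1a stretch is chr12:73907617-73907866 on the plus strand, inside the gene as GENCODE M21 draws it (an earlier start lies at 73901375) and in none of its exons. A run of bases just after this RefSeq start was not found whole in a GENCODE M21 transcript of Hif1a. The Ankrd37 stretch is chr8:45999868-46000100 on the minus strand, also inside the gene as GENCODE M21 draws it (45996902 to 46005707). The Pdk1 stretch is chr2:71872974-71873223 on the plus strand, and the P4ha1 stretch chr10:59323046-59323295 on the plus strand. Over the full 250 bases before the start, Hif1a held 3 matches (all ACGTG), Ankrd37 4 (both forms), Pdk1 1 (GCGTG) and P4ha1 3 (both forms). Of 32851 RefSeq entries, 38.6% held at least 1 match in a window of that length, and 16.7% at least 2. Of the other members, Bnip3 held 5, Egln1 2, Egln3 1 and Vegfa 0 at its first listed start, while Epas1 and Bnip3l had no entry. A second listed start of Vegfa held 2 matches, with 218 of the 250 bases exonic. A second listed start of Pdk1 held 0, with all 250 bases exonic. A match here is a description of letters and says nothing about binding.

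A library held between 45965659 and 89007100 counts in all, and levels are given as CPM, counts per 10⁶ on library sizes adjusted by the trimmed mean of M values (TMM). Read counts carry sequencing error as well as the spread between pools. Ribosomal RNA took 8.27 to 32.1% of a library's counts and was highest in syngeneic KO replicate 1, which also stood apart on the second principal component. The 13 T cell markers summed to 3846 to 5221 CPM in syngeneic WT and 4447 to 6953 in syngeneic KO libraries. In allogeneic WT they summed to 5652 to 6315 CPM and in allogeneic KO to 5105 to 7708. The WT ranges thus did not overlap between settings, and the part of T cell content in the differences between settings was not tested. The 14 erythroid markers summed to 2390 to 5706 CPM in the syngeneic WT libraries, but to 48.2 to 163 in syngeneic KO, 26.2 to 94.8 with allogeneic WT and 35.5 to 54.8 with allogeneic KO donors. The 16 myeloid markers summed to 265 to 824, 36.5 to 394, 361 to 597 and 240 to 391 CPM in the same order, the 10 B cell markers to 12.1 to 24.9 CPM over all libraries, and the 9 endothelial markers to at most 8.38 CPM, with Emcn at 0 throughout. Wapl stood at 170, 211 and 183 CPM in the syngeneic WT and 127, 139 and 137 in the syngeneic KO libraries, against 169, 156 and 158 in the allogeneic WT and 145, 124 and 151 in the allogeneic KO libraries. KO libraries lay below the WT libraries of their setting. These counts cover the entire gene and may include reads from undeleted exons, so they are no measure of the deletion. The sum of 4 Y-linked genes was 0.733 to 1.75 CPM in the 6 WT libraries and 31.4 to 138 in the 6 KO libraries, so genotype and the presence of male cells cannot be told apart.

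The 2 settings were compared within each genotype, by edgeR's quasi-likelihood test with p-values adjusted over all 18447 genes and a threshold of 0.05. In WT, 5 of the 10 genes rose in allogeneic libraries (Hif1a, Epas1, Egln1, Egln3 and Ankrd37), 2 fell (Pdk1 and P4ha1) and 3 did not pass. In WT the factors Hif1a and Epas1 and the oxygen sensors Egln1 and Egln3 thus stood higher, as did Ankrd37, a readout of hypoxia. A metabolic target and a collagen-modifying target stood lower, so known targets among the called genes went both ways. Of all genes tested, 32.3% were called in that comparison, 16.4% as higher and 15.9% as lower, so a difference of either sign was common. In KO, 4 rose (Hif1a, Epas1, Bnip3l and Ankrd37) and the same 2 fell, against 24.4% of all genes called (13.2% higher, 11.2% lower). The 2 comparisons share no library. The median log2 difference of the 10 genes was 0.19 in WT and 0.44 in KO, beside −0.03 and −0.02 for all genes tested. In WT, 7 of the 10 had groups that did not overlap, against 55.7% of all genes, and in KO 6 of 10, against 33.6%.

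**Figure D1:**
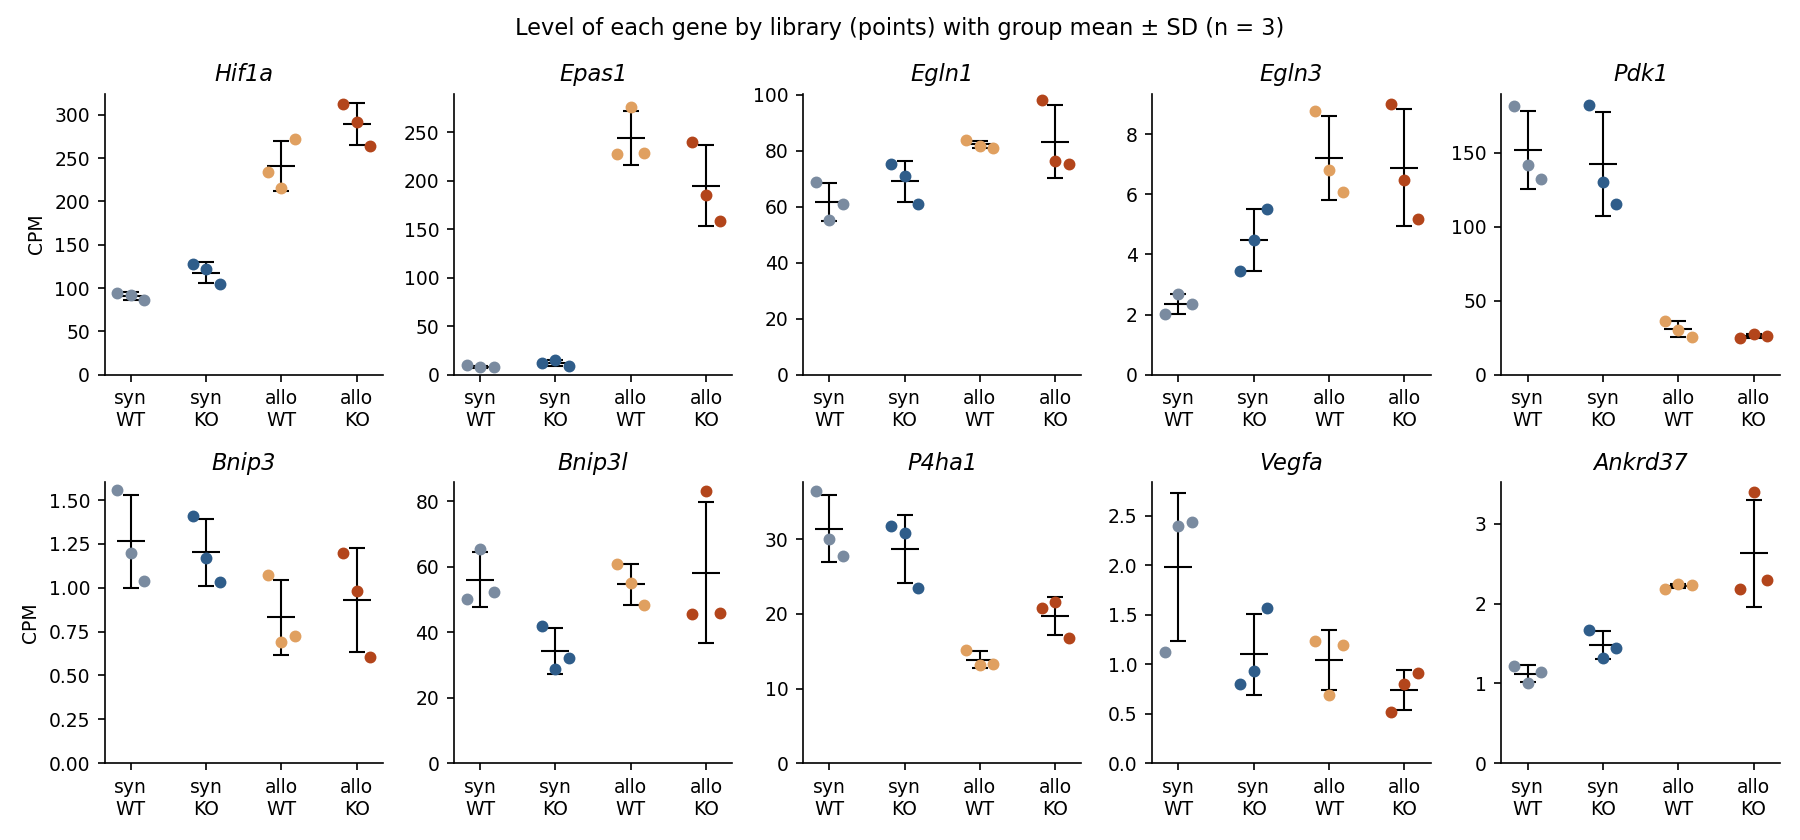
CPM (linear axis from 0, 1 panel per gene) of each of the 10 genes in every library, 1 point per library, with bars for the mean ± SD of each group of 3. Epas1 sits below 15 CPM in all 6 syngeneic libraries and above 150 in all 6 allogeneic ones, Pdk1 shows the opposite order, and the points of Bnip3 and Vegfa overlap between settings.

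Epas1, on chromosome 17 at 86753700 to 86833410 of GRCm38 (plus strand), encodes the second oxygen-labile alpha subunit, best known from endothelial cells and the control of erythropoietin. Its level was 9.46, 7.46 and 7.90 CPM in the syngeneic WT and 11.6, 14.7 and 9.24 in the syngeneic KO libraries, against 228, 276 and 229 in the allogeneic WT and 240, 185 and 159 in the allogeneic KO libraries. The lowest allogeneic library stood more than 10 times above the highest syngeneic one, and in each setting the WT and KO values overlapped in part. In WT it rose 29.5-fold (log2 difference 4.88 ± 0.22, SE, edgeR adjusted p = 1.62e-08) and in KO 16.4-fold (4.04 ± 0.21, adjusted p = 7.84e-08). Endothelial markers, from a cell type that expresses Epas1 strongly, summed to 2.72 to 8.38 CPM in syngeneic WT, 1.22 to 1.63 in allogeneic WT, 1.11 to 2.99 in syngeneic KO and 0.667 to 1.65 in allogeneic KO. Their part in the Epas1 level was not tested.

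Hif1a (chromosome 12, 73901375 to 73947530, plus strand) encodes the alpha subunit that drives most glycolytic targets. It measured 94.7, 91.7 and 86.0 CPM in the syngeneic WT and 127, 122 and 104 in the syngeneic KO libraries, against 234, 216 and 272 in the allogeneic WT and 312, 291 and 264 in the allogeneic KO libraries. All 6 allogeneic libraries exceeded all 6 syngeneic ones. The rise was 2.65-fold in WT (log2 1.41 ± 0.12, edgeR adjusted p = 3.46e-06) and 2.45-fold in KO (1.29 ± 0.12, adjusted p = 1.03e-05). Since fewer cells with a transcript and less of it per cell cannot be told apart in pooled RNA, these are levels of the sorted population.

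Per length of exon, Epas1 stood far below Hif1a in the syngeneic libraries and near it in the allogeneic WT libraries. In syngeneic WT, Hif1a stood at 15.4 ± 0.755 CPM per kb (SD, n = 3) and Epas1 at 1.48 ± 0.188, and in allogeneic WT at 40.8 ± 4.89 and 43.7 ± 4.96, values that overlap within their spread. In allogeneic KO, Hif1a stayed above Epas1 in all 3 libraries, at 49.0 ± 4.06 and 34.8 ± 7.43 CPM per kb. Epas1 therefore made up 8.76 ± 0.819% of the summed level of both genes in syngeneic WT and 9.53 ± 1.51% in syngeneic KO, but 51.7 ± 5.30% and 41.2 ± 3.16% in allogeneic WT and KO. The ranges of the allogeneic WT (47.0 to 57.4%) and allogeneic KO shares (38.8 to 44.8%) did not overlap, while those of the syngeneic groups did. These shares restate the levels above and were not tested.

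**Figure D2:**
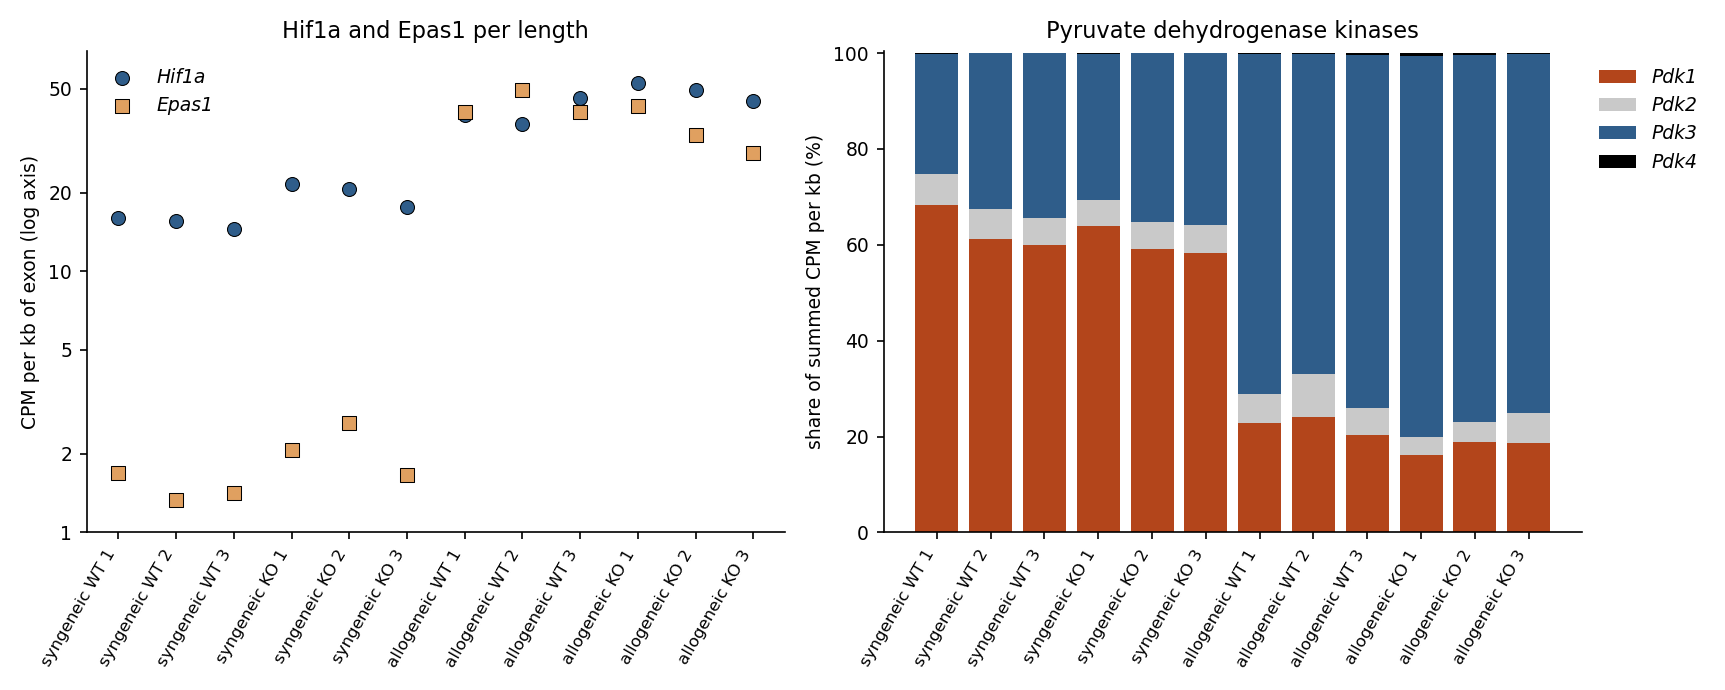
Left, Hif1a and Epas1 as CPM per kb of exon (log axis) in each library; right, the share (%) of each pyruvate dehydrogenase kinase gene in their summed CPM per kb. Epas1 lies far below Hif1a in the 6 syngeneic libraries and beside it in the allogeneic WT libraries, and Pdk1 gives way to Pdk3 as the largest share in the 6 allogeneic libraries.

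Egln1 (chromosome 8, 124908587 to 124949324, minus strand) encodes the main hydroxylase that tags HIF-alpha for destruction. It measured 68.9, 55.4 and 60.9 CPM in the syngeneic WT and 75.3, 71.0 and 61.2 in the syngeneic KO libraries, against 83.8, 81.9 and 81.2 in the allogeneic WT and 98.4, 76.3 and 75.1 in the allogeneic KO libraries. In WT the settings did not overlap and the gene rose by 0.41 ± 0.13 on the log2 scale (edgeR adjusted p = 0.0266), a call lost with upper quartile scaling (0.31, adjusted p = 0.0600) or without any 1 of 5 libraries: syngeneic WT replicate 2 or 3 and allogeneic WT replicates 1, 2 and 3 (adjusted p from 0.0508 to 0.116). In KO the difference was 0.27 ± 0.13 (adjusted p = 0.151). Egln3 (chromosome 12, 54178981 to 54203860, minus strand) encodes a hydroxylase whose gene is itself induced by the factors it restrains. It measured 2.02, 2.67 and 2.35 CPM in the syngeneic WT and 3.44, 4.47 and 5.51 in the syngeneic KO libraries, against 8.78, 6.81 and 6.07 in the allogeneic WT and 9.01, 6.49 and 5.17 in the allogeneic KO libraries. Syngeneic WT libraries were the lowest, and the syngeneic KO and allogeneic KO ranges overlapped. It rose 3.07-fold in allogeneic WT (1.62 ± 0.25, adjusted p = 3.72e-04), and in KO its difference of 0.62 ± 0.25 did not pass (adjusted p = 0.0865), except without allogeneic KO replicate 3 (0.80, adjusted p = 0.0315). Per length, Egln1 held 51.4 to 52.2% of the summed Egln1, Egln2 and Egln3 level in all 4 groups on average. Egln3 held 2.69 ± 0.708% in syngeneic WT and 6.08 ± 1.00% in allogeneic WT.

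Pdk1 encodes a kinase that switches off pyruvate dehydrogenase and so keeps pyruvate out of the mitochondrial citric acid cycle (chromosome 2, 71873224 to 71903858, plus strand). It measured 182, 142 and 132 CPM in the syngeneic WT and 182, 130 and 115 in the syngeneic KO libraries, against 36.1, 30.4 and 25.3 in the allogeneic WT and 25.0, 27.3 and 26.3 in the allogeneic KO libraries. Every allogeneic library lay below every syngeneic one. The gene fell 4.96-fold in WT (log2 −2.31 ± 0.19, edgeR adjusted p = 1.83e-06) and 5.44-fold in KO (−2.44 ± 0.19, adjusted p = 1.80e-06), although it is a textbook target induced by HIF. Erythroid markers, high in syngeneic WT only, fell between settings in WT as well (14 of 14), and their part in the Pdk1 value was not tested.

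The kinase family turned over with it. Pdk1 was 63.1 ± 4.50% of the summed CPM per kb of Pdk1 to Pdk4 in syngeneic WT and 60.5 ± 2.97% in syngeneic KO, but 22.4 ± 1.96% in allogeneic WT and 17.9 ± 1.53% in allogeneic KO. Pdk3 went from 30.6 ± 4.86% to 70.4 ± 3.38% in WT and from 33.8 ± 2.84% to 77.0 ± 2.37% in KO. Pdk3 itself rose modestly, by 0.40 ± 0.13 (edgeR adjusted p = 0.0326) in WT and 0.53 ± 0.13 (adjusted p = 0.0109) in KO, less than Pdk1 fell. The Pdk3 call in WT was lost with upper quartile scaling and without each of 5 libraries (every syngeneic WT replicate and allogeneic WT replicates 1 and 3, adjusted p up to 0.146), and that in KO without syngeneic KO replicate 3 (adjusted p = 0.0518).

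Bnip3 and Bnip3l encode related proteins of the outer mitochondrial membrane that recruit mitochondria for removal by autophagy, and Bnip3l is also needed to clear mitochondria from maturing red cells. Bnip3l (chromosome 14, 66985239 to 67008877, minus strand) measured 50.1, 65.6 and 52.2 CPM in the syngeneic WT and 42.0, 28.7 and 32.0 in the syngeneic KO libraries, against 60.8, 54.9 and 48.2 in the allogeneic WT and 45.7, 83.1 and 45.9 in the allogeneic KO libraries. Syngeneic KO was the low group and allogeneic KO replicate 2 the high library. Bnip3l differed by −0.03 ± 0.22 between settings in WT (adjusted p = 0.922) and rose by 0.77 ± 0.23 in KO (edgeR adjusted p = 0.0267). The KO call was lost with only the 2 groups in the fit (adjusted p = 0.0835), without allogeneic KO replicate 2 (0.46, adjusted p = 0.0787) and without syngeneic KO replicate 2 (adjusted p = 0.106) or 3 (adjusted p = 0.0825). The genome also holds a pseudogene, Bnip3l-ps, on chromosome 12, and counts could be split between such copies.

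Bnip3 (chromosome 7, 138890836 to 138909519, minus strand) was scarce, between 0.608 and 1.56 CPM. Its groups overlapped, with log2 differences of −0.61 ± 0.31 in WT and −0.38 ± 0.32 in KO (edgeR adjusted p = 0.157 and 0.408). Per length it made up 2.51 to 5.70% of the summed Bnip3 and Bnip3l level on group average, so Bnip3l supplied nearly all of this pair's RNA. An antisense gene, Gm45507, overlaps 22.3% of its exon length, and the strand setting of the counting is not given in the sources used here.

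P4ha1 encodes the catalytic subunit of the enzyme that hydroxylates collagen prolines in the endoplasmic reticulum (chromosome 10, 59323296 to 59373304, plus strand). It measured 36.5, 30.1 and 27.8 CPM in the syngeneic WT and 31.8, 30.9 and 23.5 in the syngeneic KO libraries, against 15.1, 13.1 and 13.3 in the allogeneic WT and 20.8, 21.6 and 16.8 in the allogeneic KO libraries. The settings did not overlap, and the allogeneic KO libraries lay between the allogeneic WT libraries and the syngeneic ones without overlapping either. It fell by 1.18 ± 0.16 on the log2 scale in WT (edgeR adjusted p = 1.03e-04) and by 0.54 ± 0.16 in KO (adjusted p = 0.0231). The KO call was lost with only the 2 groups in the fit (adjusted p = 0.0641) and without syngeneic KO replicate 1 (0.0708), syngeneic KO replicate 2 (0.0921) or allogeneic KO replicate 3 (0.0674). Its paralog P4ha2 held under 3% of the pair's summed level per length in each group.

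Vegfa, the main growth factor for vessels, and Ankrd37, an ankyrin repeat gene long used as a readout of hypoxia, were both scarce. Vegfa (chromosome 17, 46016993 to 46032369, minus strand) measured 1.12, 2.40 and 2.44 CPM in the syngeneic WT and 0.804, 0.928 and 1.57 in the syngeneic KO libraries, against 1.23, 0.692 and 1.20 in the allogeneic WT and 0.516, 0.801 and 0.911 in the allogeneic KO libraries. Syngeneic WT replicates 2 and 3 were the highest libraries and the groups overlapped. Vegfa differed by −0.93 ± 0.39 in WT and −0.55 ± 0.39 in KO (edgeR adjusted p = 0.0814 and 0.330). In WT it passed with only the 2 groups in the fit (−0.94, adjusted p = 0.0499) and without syngeneic WT replicate 1 (−1.21, adjusted p = 0.0308).

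Ankrd37 (chromosome 8, 45996902 to 46005707, minus strand) measured 1.21, 1.01 and 1.14 CPM in the syngeneic WT and 1.67, 1.32 and 1.45 in the syngeneic KO libraries, against 2.19, 2.24 and 2.23 in the allogeneic WT and 2.18, 3.40 and 2.30 in the allogeneic KO libraries. All 6 allogeneic libraries lay above all 6 syngeneic ones, and allogeneic WT was tight. The rise was 0.98 ± 0.24 in WT and 0.83 ± 0.23 in KO (edgeR adjusted p = 0.00669 and 0.0209), the latter lost with only the 2 groups in the fit (adjusted p = 0.113) and without syngeneic KO replicate 2 (0.0892), syngeneic KO replicate 3 (0.0618) or allogeneic KO replicate 2 (0.0703). Lrp2bp overlaps 22.7% of its exon length on the opposite strand. Lrp2bp itself averaged 0.984 CPM in the syngeneic WT and 0.786 in the syngeneic KO libraries. Its averages were 0.722 CPM in the allogeneic WT and 0.719 in the allogeneic KO libraries. These values cover the whole Lrp2bp gene, and the part of its reads in the Ankrd37 value was not tested.

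**Figure D3:**
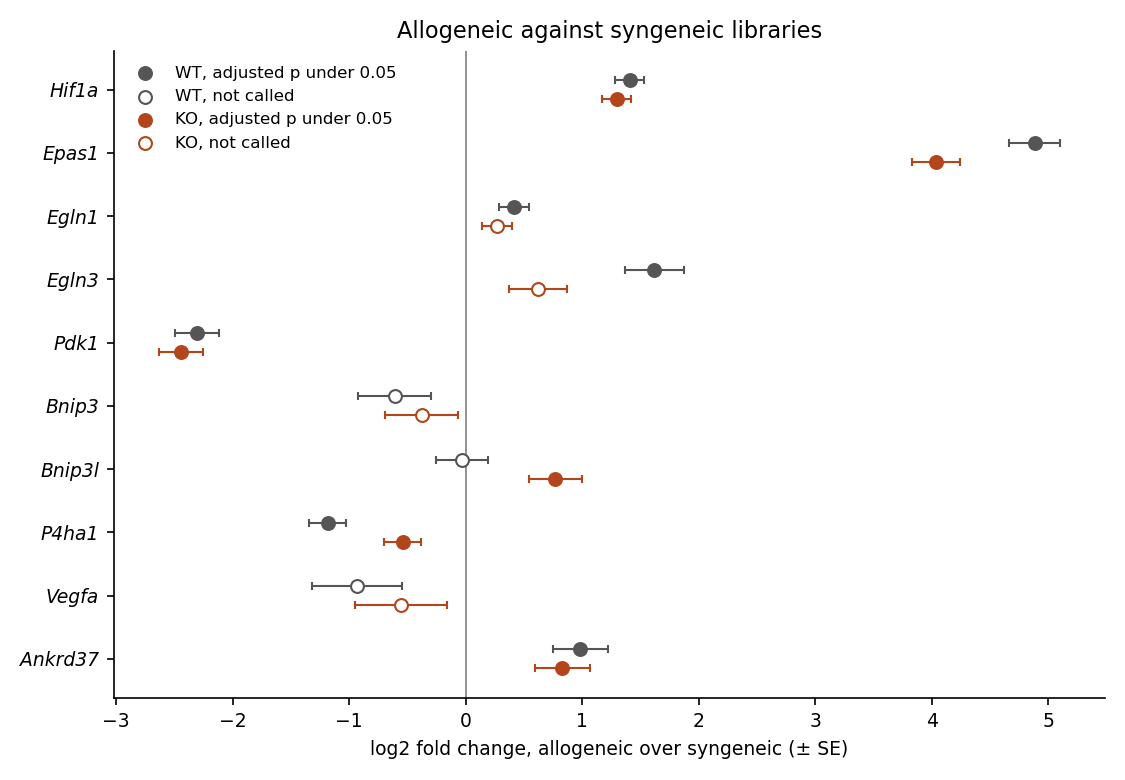
Log2 difference between allogeneic and syngeneic libraries (points, with bars of 1 SE) for each of the 10 genes, in WT and in KO, with called genes filled. Epas1 lies at 4.88 and 4.04 and Pdk1 at −2.31 and −2.44, and the 2 genotypes share the sign for every gene except Bnip3l.

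Loss of Wapl was compared with WT within each setting. After syngeneic transplantation 0 of the 10 genes passed edgeR's test, against 3.37% of all genes tested. At an unadjusted p under 0.05 there were 5 of the 10, against 14.0% of all genes. By DESeq2, which called more genes in all than edgeR did, 2 of the 10 passed. Groups did not overlap for 4 of the 10 (Hif1a, Egln3 and Ankrd37 higher in KO and Bnip3l lower), against 23.3% of all genes. After allogeneic transplantation 0 of the 10 passed by edgeR or DESeq2, against 0.0542% of all genes by edgeR. At an unadjusted p under 0.05 there were 2, against 4.18% of all genes, and 1 gene, P4ha1, had groups that did not overlap, against 7.66% of all genes. The median log2 difference of the 10 was 0.04 and 0.05, beside 0.06 and 0.03 over all genes.

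The syngeneic KO values came closest to the threshold for Egln3, the hydroxylase induced by its own substrates. It averaged 2.35 CPM in WT and 4.47 in KO, a difference of 0.93 ± 0.25 (edgeR adjusted p = 0.0707). DESeq2 gave 0.91 (adjusted p = 0.0112), and edgeR within the 6 syngeneic libraries with the replicate number as a block gave 0.87 (adjusted p = 0.0280). Bnip3l differed by −0.71 ± 0.23 (edgeR adjusted p = 0.148), and DESeq2 gave −0.73 (adjusted p = 0.0443). Erythroid markers, from a lineage in which Bnip3l is abundant, moved with it here: 12 of 14 fell in syngeneic KO. In allogeneic WT the erythroid markers summed to 26.2 to 94.8 CPM and Bnip3l averaged 54.7 CPM, beside 55.95 CPM in syngeneic WT. Recipient strain, irradiation dose and T cell number differ between those groups as well. The part of erythroid cells in the Bnip3l value was not tested.

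Hif1a differed by 0.38 ± 0.12 between syngeneic KO and WT (edgeR adjusted p = 0.155) and by 0.27 ± 0.12 in allogeneic libraries (adjusted p = 0.963). Epas1 differed by 0.52 ± 0.19 (adjusted p = 0.218) and −0.33 ± 0.18 (adjusted p = 0.963). Its values leaned up in 1 setting and down in the other without passing in either. P4ha1 differed by −0.13 ± 0.16 in syngeneic and 0.51 ± 0.16 in allogeneic libraries, the latter at an unadjusted p of 0.00627 and an adjusted p of 0.815. Ankrd37 differed by 0.40 ± 0.24 and 0.25 ± 0.23, and Vegfa by −0.85 ± 0.39 and −0.47 ± 0.39. Pdk1, whose level turned so sharply with the setting, differed by −0.09 ± 0.18 and −0.23 ± 0.18 with genotype, and Egln1 by 0.16 ± 0.13 and 0.02 ± 0.13.

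**Figure D4:**
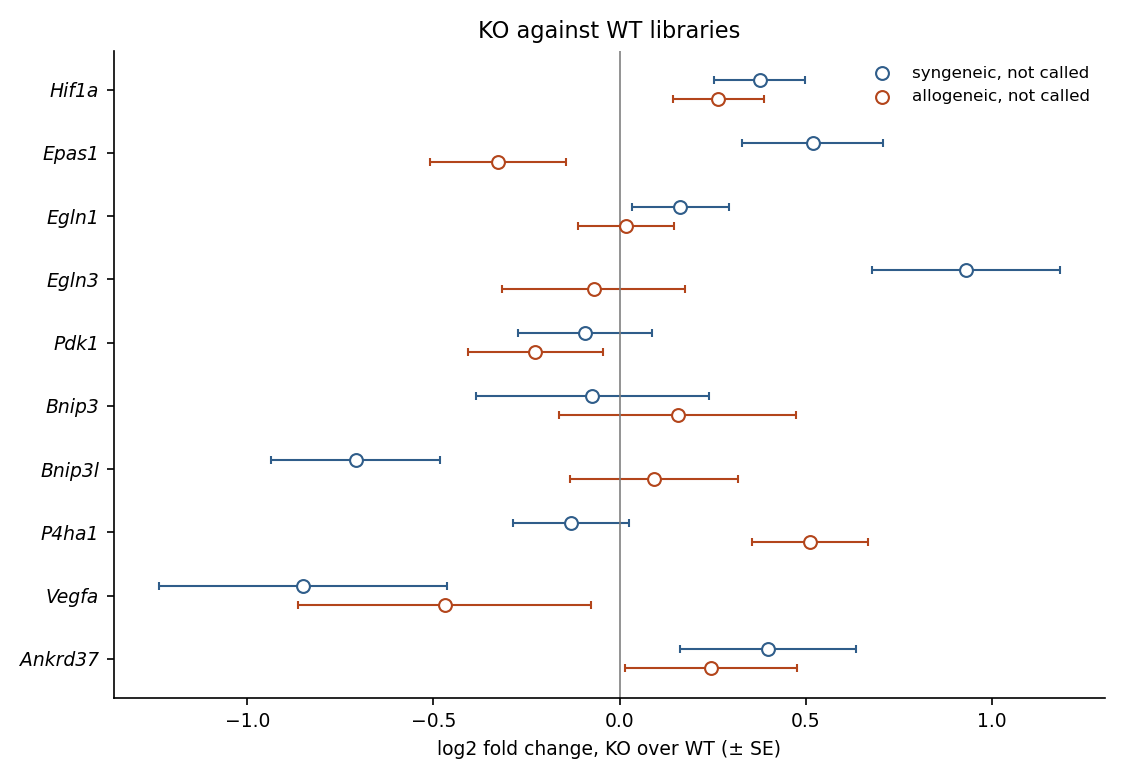
Log2 difference between KO and WT libraries (points, with bars of 1 SE) for the 10 genes after syngeneic and after allogeneic transplantation. In the syngeneic setting Egln3 lies at 0.93, Bnip3l at −0.71 and the scarce Vegfa at −0.85, and none of the 10 passed the test in either setting.

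Whether the KO effect differed between settings was tested as an interaction. None of the 10 genes passed by edgeR or DESeq2, against 0.477% of all genes, and 4 of the 10 had an unadjusted p under 0.05, against 6.20% of all genes. Those 4 were Epas1 (−0.85 ± 0.26, edgeR adjusted p = 0.338), Egln3 (−1.00 ± 0.35, adjusted p = 0.464), P4ha1 (0.64 ± 0.22, adjusted p = 0.438) and Bnip3l (0.80 ± 0.32, adjusted p = 0.630). A negative value means that the KO minus WT difference was lower in allogeneic libraries. The calls for Egln1 and Egln3 in WT alone, and for Bnip3l in KO alone, are thus not shown to differ between genotypes.

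Other genes of the oxygen pathway were read from lists that leave out the 10 members. Of 15 further genes of HIF subunits and oxygen sensing, 3 rose and 1 fell in allogeneic WT, and 4 rose and 1 fell in allogeneic KO, with a median of 0.31 in both. These counts, 4 of 15 and 5 of 15, are near the shares of all genes called in the 2 comparisons, 32.3% and 24.4%. Vhl, the ligase subunit that recognises hydroxylated HIF, rose by 0.80 ± 0.15 in WT and by 0.60 ± 0.15 in KO (edgeR adjusted p = 0.00140 and 0.0112), the latter lost without syngeneic KO replicate 2 (adjusted p = 0.0590). Siah1a, a ligase that degrades EGLN proteins, fell by 1.07 ± 0.14 and by 0.73 ± 0.14 (adjusted p = 1.03e-04 and 0.00249). Arnt, the shared partner subunit, differed by 0.15 ± 0.09 in WT and 0.32 ± 0.09 in KO (edgeR adjusted p = 0.210 and 0.0204), a call that 6 of 13 alternatives did not keep, among them 3 that left out syngeneic KO replicate 2 or 3 or allogeneic KO replicate 1.

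Of 19 glycolytic targets tested, 11 rose, 0 fell and 8 did not pass in allogeneic WT, with a median of 0.59 beside −0.03 for all genes. In KO 5 rose, 0 fell and 14 did not pass, with a median of 0.29 beside −0.02. Of all genes tested, 32.3% were called in WT (16.4% as higher) and 24.4% in KO (13.2% as higher). The total called in KO, 5 of 19, is near the share of all genes called there. Among those that did not pass were values below 0, such as Pfkfb4 in WT (6.23 CPM in syngeneic and 4.55 in allogeneic libraries on average) and Pgam1 in KO (120 and 113 CPM), both named after their values were seen. Slc2a3, a high-affinity glucose transporter, rose from 60.7 ± 3.60 to 166 ± 5.84 CPM in WT (log2 1.46 ± 0.10, edgeR adjusted p = 4.40e-07) and from 65.4 ± 5.54 to 169 ± 1.74 CPM in KO (1.37 ± 0.10, adjusted p = 9.35e-07). Slc16a3, which exports lactate, rose by 1.21 ± 0.19 and 1.64 ± 0.20, and Pfkp, a phosphofructokinase, by 0.81 ± 0.13 and 0.69 ± 0.13. Hk2, which traps glucose in the cell, rose by 0.92 ± 0.17 in WT. These 4 genes kept their calls under all 13 alternatives, while the count for the list ran from 8 to 15 in WT and from 3 to 7 in KO.

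The remaining 28 targets did not move together: 6 rose and 7 fell in WT, and 8 rose and 7 fell in KO, with medians of −0.06 and 0.05. Over all genes tested, 16.4% were called as higher and 15.9% as lower in WT, and 13.2% and 11.2% in KO. Bhlhe40, a transcription repressor that T cells also induce on activation, rose by 2.68 ± 0.16 in WT and 2.13 ± 0.15 in KO (edgeR adjusted p = 1.42e-07 and 9.48e-07). Ndrg1 rose by 1.37 ± 0.15 and 1.40 ± 0.15, and Ddit4, an inhibitor of mTORC1, by 1.47 ± 0.17 and 1.28 ± 0.17. Zfp395 fell by 1.94 ± 0.14 and by 1.68 ± 0.14, and Car12, a membrane carbonic anhydrase, by 1.58 ± 0.19 and by 1.83 ± 0.20. These 5 genes kept their calls under all 13 alternatives in both genotypes. Pdk1 and P4ha1 were thus not alone among known targets in standing lower.

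**Figure D5:**
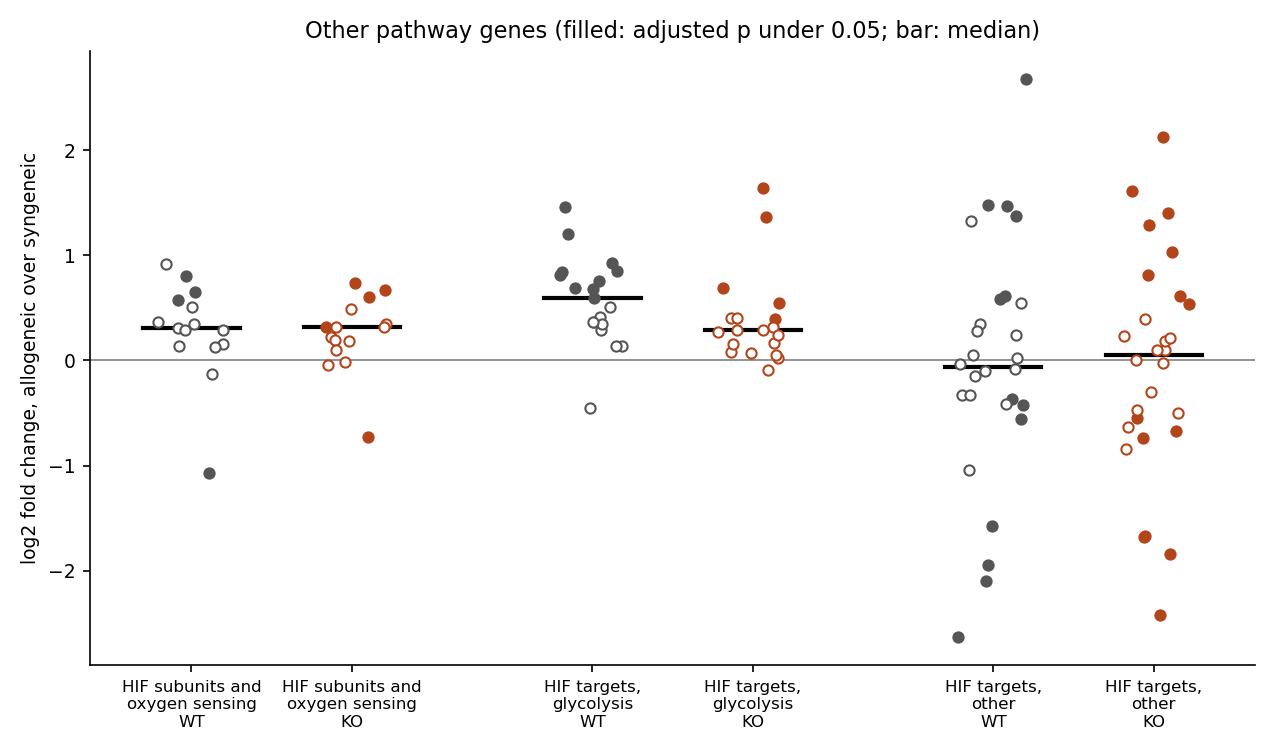
Log2 difference between allogeneic and syngeneic libraries for the tested genes of 3 pathway lists without the 10 members, in WT and KO, 1 point per gene, with called genes filled and a bar at the median. The glycolysis points lie mostly above 0, and those of the other targets spread to both sides.

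Around Vegfa, both receptors and ligands differed between settings. Of 6 further ligands and receptors tested, 2 rose and 3 fell in each genotype, against 32.3% of all genes called in WT and 24.4% in KO. Nrp1, a co-receptor for VEGF and semaphorins, rose by 2.89 ± 0.14 in WT and 2.33 ± 0.14 in KO (edgeR adjusted p = 3.10e-08 and 2.30e-07), while Nrp2 fell 16.3-fold and 18.3-fold. Flt1, a VEGF receptor, rose by 3.00 ± 0.44 and 4.84 ± 0.50, from 7 to 35 counts in a syngeneic library to 146 to 281 in an allogeneic one. Among the scarce ligands, Figf was called lower in WT (10 to 23 counts in a syngeneic and 1 to 3 in an allogeneic library, edgeR adjusted p = 0.00992), a call lost without syngeneic WT replicate 3 (0.0550) or allogeneic WT replicate 2 (0.0598). Vegfc was called lower in KO (8 to 25 counts against 0 to 3, adjusted p = 0.0137), a call lost without syngeneic KO replicate 2 (0.0583). Vegfb, a better expressed ligand, fell by 0.56 ± 0.15 in WT and by 0.55 ± 0.15 in KO (edgeR adjusted p = 0.0150 and 0.0198). Each Vegfb call was lost without any 1 of 3 libraries, in WT syngeneic replicates 2 and 3 and allogeneic replicate 3, in KO syngeneic replicates 1 and 3 and allogeneic replicate 2 (adjusted p up to 0.0829).

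The lists next to the other members were small. Of 11 further genes around pyruvate dehydrogenase, 2 rose and 1 fell in WT and 1 rose and 2 fell in KO, again near the 32.3% and 24.4% of all genes called. Of 6 further mitophagy genes, 2 rose in WT and 1 in KO, with Pink1, the kinase that marks damaged mitochondria, at 0.51 ± 0.13 in each (edgeR adjusted p = 0.0103 and 0.0131), the KO call being lost without syngeneic KO replicate 2 or 3 (adjusted p = 0.0644 and 0.0587). Of 3 further genes of the collagen hydroxylase list, P4hb rose in WT (0.64 ± 0.21, adjusted p = 0.0305), a call lost without each of 5 of the 6 WT libraries, all but allogeneic WT replicate 2 (adjusted p up to 0.129). In KO none of these 3 passed.

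Between KO and WT the lists held few calls. After syngeneic transplantation Pfkfb4, a regulator of phosphofructokinase, fell by 1.13 ± 0.22 (edgeR adjusted p = 0.0138), Plod2, a collagen lysyl hydroxylase, rose by 1.58 ± 0.27 (adjusted p = 0.00580), Mxi1, an antagonist of MYC, fell by 1.10 ± 0.20 (adjusted p = 0.00728) and Nrp1 rose by 0.61 ± 0.13 (adjusted p = 0.0225). Tfrc, the transferrin receptor that red cell precursors carry in large amounts, fell by 2.05 ± 0.36 (adjusted p = 0.00959) alongside the erythroid markers, whose part in it was not tested. The Pfkfb4 call was lost without syngeneic WT replicate 2 or 3 or syngeneic KO replicate 2 (adjusted p up to 0.0792), that of Mxi1 without syngeneic KO replicate 2 (0.0507), that of Tfrc without syngeneic KO replicate 1 (0.0541) or 2 (0.0578), and that of Nrp1 without syngeneic WT replicate 1 or 3 or syngeneic KO replicate 1 or 3 (adjusted p up to 0.0994). With only the 2 groups in the fit, the calls of Plod2 (0.0507), Mxi1 (0.0574), Nrp1 (0.0917) and Tfrc (0.0964) were lost, and that of Nrp1 also with upper quartile scaling (0.0538). The glycolysis list held 1 call of 19 by edgeR, against 3.37% of all genes. At an unadjusted p under 0.05 by edgeR there were 11 of the 19, against 14.0% of all genes. The median log2 difference of this list was 0.37, beside 0.06 for all genes. In a fit of the syngeneic libraries alone, blocked on replicate number and added after the data had been seen, 9 of its genes rose and 1 fell. By DESeq2 2 rose and 1 fell. That blocked fit and DESeq2 both called more genes in all than the main fit with 622, as the closing section gives. After allogeneic transplantation neither edgeR nor DESeq2 called any gene of the 7 lists, and 3 genes outside the 10 members had an unadjusted p under 0.05 by edgeR, 1 of the glycolysis list and 2 of the other targets. Over all genes tested, 4.18% had an unadjusted p under 0.05 there.

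Genes with the most similar profile over the 12 libraries were sought for each member called in at least 1 comparison, as the smallest root mean square difference of centred log2 CPM among 9438 genes of at least 5 CPM on average. For Hif1a they were Plekhb2 (0.113) and Lgalsl (0.131), for Epas1 Adamts14 (0.334) and Spock2 (0.353), and for Pdk1 Treml2 (0.172) and Rnf122 (0.219). The difference is not scaled to how far a gene moved, so its size cannot be compared between members. For Egln1 they were Slc39a7 (0.0547) and Agpat6 (0.0560), for Egln3 Slc39a4 (0.239) and Dusp4 (0.241), for P4ha1 Prmt3 (0.153) and Tbxa2r (0.163), for Bnip3l Ypel5 (0.109) and Serinc1 (0.150), and for Ankrd37 Mina (0.102) and Cutc (0.108). These values describe likeness over shared libraries and nothing more.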

How the data were processed

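The values used are expected counts per gene, deposited by the authors as 1 table. Build GRCm38 and the tools Cufflinks, TopHat2 2.0.13, Cuffdiff 2.2.1 and Bowtie2 2.2.1 stand in the submitters' processing notes; which tool made the counts, the annotation and the strand setting are not given in the sources used here. Values were rounded to whole numbers. The 12 columns named as in the sample titles were used; 6 columns prefixed allo could be tied to no other sample and stayed out, and 6 naive samples were not analysed here. Total RNA (100 ng) was depleted of ribosomal RNA.

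The 12 libraries went into 1 quasi-likelihood model of 4 group means in edgeR 4.0.16 (with limma 3.58.1 in R 4.3.3), with TMM scaling and the filterByExpr filter (count minimum 10), leaving 8 residual degrees of freedom. Adjusted p-values are two-sided, by Benjamini-Hochberg over 18447 genes; standard errors are the log2 difference divided by the square root of F. "Called" means an adjusted p under 0.05. Scripts were tested on simulated data, with known changes put into allogeneic WT for genes drawn at random. Of changes of 1 on the log2 scale 40.2% were recovered, and of changes of 2, 74.7%. Positions and exon lengths come from GENCODE M21 (45139 identifiers matched), promoters from RefSeq.

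Members, lists and the rule for named genes (up to 4 called genes of a list with the smallest p, paralogs, and the 2 genes of most similar profile) were chosen with earlier results of these data known. The labels call the triplicates independent. Same-numbered libraries deviated together between syngeneic WT and KO (residual r of 0.545, 0.170 and 0.335), which the labels do not state as a pairing, so the syngeneic comparison was also fitted with the replicate number as a block. Alternatives were DESeq2 1.42.0, other scalings, no filter, no ribosomal RNA genes, only the 2 groups compared, a replicate block and each library left out.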

Additional observations from a re-analysis of the deposited data

How the results depend on the processing

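Hif1a, Epas1 and Pdk1 were called in the same direction under all 13 alternatives in both comparisons of settings, and Egln3, P4ha1 and Ankrd37 in the WT comparison. With the replicate number as a block over all 12 libraries, no call of a member changed, and the genes called were 626 (KO versus WT, syngeneic), 11 (KO versus WT, allogeneic), 6098 (settings, WT), 4630 (settings, KO) and 64 (interaction), with 0, 0, 7, 6 and 0 members among them. A block fitted to the 6 syngeneic libraries alone, an alternative added after the data had been seen, called 1287 genes and 1 member (Egln3) against 622 and 0. DESeq2 called 1018 genes (2 members) between syngeneic KO and WT, 77 against 10 between allogeneic KO and WT, and 293 against 88 for the interaction. With only the 2 groups compared, 349 genes were called for syngeneic KO, 6 for allogeneic KO, and 2669 genes with 3 members against 4500 and 6 for the settings in KO. Leaving out 1 library in turn gave 260 to 742 genes (syngeneic KO; 410 without syngeneic KO replicate 1), 3 to 15 (allogeneic KO), 4110 to 5380 (settings, WT), 3062 to 5397 (settings, KO) and 28 to 242 (interaction), and 0, 0, 6 to 8, 3 to 6 and 0 members. Without syngeneic KO replicate 1, 5 members were called between settings in KO.

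Sign changes were limited to uncalled values near 0. Egln1 between allogeneic KO and WT was −0.0197 with upper quartile scaling and −0.0025 with no filter, and −0.121 to 0.0845 with 1 library left out. On leaving out 1 library, Bnip3 ran from −0.0615 to 0.392 (allogeneic KO versus WT) and −0.23 to 0.11 (syngeneic), Bnip3l from −0.27 to 0.24 (allogeneic) and −0.11 to 0.10 (settings, WT), Egln3 from −0.31 to 0.10 (allogeneic), and Pdk1 from −0.338 to 0.0593 (syngeneic) and −0.29 to 0.11 (interaction). Upper quartile scaling moved the median of all genes to −0.13 in both comparisons of settings and the share of higher calls from 50.8 to 43.1% in WT and from 54.2 to 43.8% in KO; the members kept their signs there. In all these cases the cause was not tested. Vegfa and Bnip3, the scarcest of the 10 on average, have the largest standard errors in the 5 comparisons, and triplicates limit what differences could pass.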
